A study of Mus musculus with 48 samples.

Results

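The genes described here are Gpr6, Cables1, Noct, Fam107a and Fgf18, 5 of the 18194 genes measured in the mouse pars tuberalis. They were chosen by their measured change over the early evening, when mice on a first long day with delayed darkness were still in light and mice on short days were already in the dark. That choice used the arrays of ZT8 and ZT12 from the delay day and from short days, so the values of those arrays are given as a description. ZT (zeitgeber time) counts hours from lights-on, and the tests rest on the arrays that the choice did not use. Where a gene had several probe sets annotated to it alone, the brightest on average over the 48 arrays was read.

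Messenger RNA was measured on 48 expression arrays, 12 for each of 4 lighting conditions, with 2 arrays at each of 6 times of day that lie 4 h apart. On the advance day, mice of 6 weeks that had spent 3 weeks on short days received the extra 8 h of light before dawn, so that lights came on at ZT16 by the short-day count. On the delay day, mice of the same age and history received the extra 8 h after dusk, with lights on until ZT16. The other mice were 8 weeks old and lived either on long days (16 h of light for 2 weeks) or on short days (8 h of light). All were male CBA/N mice kept at 400 lux, and each array held RNA from punches of 0.5 mm pooled from 25 mice. The punches covered the pars tuberalis and touching tissue, and in such bulk RNA fewer cells of a type and less RNA per cell cannot be told apart. Age and lighting history cannot be told apart where first-day mice are set against chronic ones.

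The pars tuberalis surrounds the pituitary stalk, carries melatonin receptors and translates the length of the night into thyrotropin, which acts on neighbouring tanycytes of the hypothalamus. Its clock genes and many other transcripts change over the day, and light can act on them through melatonin, through the central clock or through other hormones such as glucocorticoids. Of the 5 genes, Gpr6 encodes an orphan receptor that raises cyclic AMP and is abundant in striatal neurons. Cables1 encodes an adaptor that links the kinases Cdk5 and Abl, Noct encodes nocturnin, a rhythmic protein of the deadenylase-like family, Fam107a encodes an actin-binding protein induced by stress and glucocorticoids in brain, and Fgf18 encodes a secreted fibroblast growth factor.

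The tissue carried its defining transcripts. Cga, the common subunit of the glycoprotein hormones, had group means between 13.36 and 14.28, and Tshb, the thyrotropin subunit, between 10.36 and 14.30 (log2 values). Transcripts of neighbouring tissue were present too: the mean log2 level of 14 hypothalamic neuron markers ran from 10.34 to 11.28 over the arrays, and that of 8 striatal neuron markers from 8.46 to 9.08. A pair of arrays stood apart. Read against the short-day course of 15 varying clock genes, the second long-day arrays of ZT16 and ZT20 sat at shifts of 1.0 and -8.2 h in clock time, while the other 10 long-day arrays sat between -5.3 and -2.6 h. The long-day evening changes, the times of highest level and the long-day courses of Cables1 and Fam107a are given with and without them. Fitted peaks, lags, correlations and the difference between long and short days include them.

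All 5 genes were measured above the first quartile of each array in all 48 arrays. Fam107a was the brightest, with a mean log2 value of 12.30 and a range of 11.67 to 12.83, a level at the 97.0th percentile of gene means. Noct averaged 9.97 (9.55 to 10.63), Cables1 9.27 (8.52 to 10.09), Gpr6 7.57 (6.28 to 8.53) and Fgf18 6.66 (5.75 to 7.51). Probe sets differ in brightness for reasons other than RNA amount, so this order is not one of RNA levels. Gpr6 lies on mouse chromosome 10 at 41069977 to 41072290, Noct on chromosome 3 at 51224447 to 51251654, Fam107a on chromosome 14 at 8296270 to 8317607 and Fgf18 on chromosome 11 at 33116970 to 33147400 (GRCm38.p6, RefSeq).

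Promoter windows from RefSeq (250 bases before to 50 after each start, GRCm38.p6) were used for 4 of the 5 genes, and Cables1 was left out. They were searched on both strands for an E-box (CACGTG), a D-box (TTATGTAA), a cyclic AMP response element or CRE (TGACGTCA), a RORE (AGGTCA) and a glucocorticoid response element (AGAACA and TGTTCT, 3 bases apart). The only match was 1 CRE, in Gpr6, with its first base at position -78 from the start. CREs of these letters stood in 1.79% of 32851 promoter windows of the same length. The windows of Gpr6 and of Noct are shown because these 2 genes had the most alike group means among the 5 genes; the CRE is in capitals.
Gpr6, chr10:41072241-41072540, minus strand: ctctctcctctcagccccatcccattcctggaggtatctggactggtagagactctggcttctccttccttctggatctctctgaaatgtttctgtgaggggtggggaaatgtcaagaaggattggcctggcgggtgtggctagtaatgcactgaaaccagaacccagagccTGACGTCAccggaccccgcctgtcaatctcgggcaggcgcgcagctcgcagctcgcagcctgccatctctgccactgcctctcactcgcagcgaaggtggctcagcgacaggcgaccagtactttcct
Noct, chr3:51224197-51224496, plus strand: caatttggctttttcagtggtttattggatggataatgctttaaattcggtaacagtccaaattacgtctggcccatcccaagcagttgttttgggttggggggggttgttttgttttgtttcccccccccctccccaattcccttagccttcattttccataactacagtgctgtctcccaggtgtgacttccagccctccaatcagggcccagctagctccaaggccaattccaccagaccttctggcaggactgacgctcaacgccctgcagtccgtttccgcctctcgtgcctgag
No match in a window says only that those letters are not in it.

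In the arrays that chose the genes, the delay-day level was low at ZT8 and, in Gpr6, Cables1, Noct and Fam107a, close to the short-day level at ZT12. By its label ZT8 is the last time before the extra light, but the labels give these arrays a time and no day, so that order rests on ZT alone. Gpr6 read 7.09 and 6.28 on the delay day at ZT8 and 7.72 and 7.95 at ZT12, against 8.53 and 8.02 at ZT8 and 7.79 and 8.26 at ZT12 on short days. Cables1 read 9.07 and 9.06, then 9.94 and 9.64 on the delay day, against 10.09 and 9.89, then 9.80 and 9.72 on short days. Noct read 9.81 and 9.62, then 10.21 and 10.19 on the delay day, against 10.63 and 10.47, then 10.02 and 10.28 on short days. At ZT8 the delay-day arrays of these 3 genes, and of Fam107a and Fgf18 below, stood under the short-day arrays without overlap. These arrays chose the genes, and 2007 of all genes (11%) were called lower there.
Fam107a read 11.93 and 11.83, then 12.51 and 12.50 on the delay day, against 12.72 and 12.51, then 12.46 and 12.53 on short days. Fgf18 read 6.95 and 6.71, then 7.13 and 6.99 on the delay day, against 7.47 and 7.29, then 6.77 and 6.73 on short days. Fam107a met the short-day level at ZT12, and Fgf18 stood above it.

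The delay-day value minus the short-day value at ZT8 was -1.59 for Gpr6, -0.93 for Cables1, -0.83 for Noct, -0.74 for Fam107a and -0.55 for Fgf18 (log2). At ZT12 the same difference was -0.19, 0.03, 0.05, 0.01 and 0.31 in that order of genes. The step, which is the delay-day change minus the short-day change, was 1.40 in Gpr6, 0.96 in Cables1, 0.89 in Noct, 0.86 in Fgf18 and 0.74 in Fam107a. In Gpr6, Cables1 and Fam107a most of it was the delay-day rise, with changes of 1.15, 0.73 and 0.63 on the delay day against -0.25, -0.23 and -0.12 on short days. Noct changed by 0.49 on the delay day and by -0.40 on short days. In Fgf18 the short-day change was the larger, with 0.23 on the delay day and -0.63 on short days. Of the 5 genes, 4 were among the 7 of 18194 (0.0385%) that passed in the contrast that chose them, and Fgf18 ranked 53 in it. Just inside the threshold of that contrast lay Cables1 and Gpr6, and just outside it Elovl6, a fatty acid elongase, with 0.59, and Rab3ip, with 0.57.

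Marker levels of neighbouring tissue differed between these arrays. The mean level of the 14 hypothalamic neuron markers was 10.36 to 10.51 on the delay day at ZT8 and 10.49 to 10.56 at ZT12, against 10.74 to 11.17 at ZT8 and 10.70 to 10.83 at ZT12 on short days. Their median change in the choosing contrast was 0.29, against 0.05 over all genes, and 0 of the 14 passed. An alternative added once the data had been seen, with that level in the model, gave steps of 1.09 in Gpr6, 0.78 in Cables1, 0.74 in Noct, 0.62 in Fam107a and 0.55 in Fgf18. The 8 pars distalis markers, genes of the adjoining anterior pituitary, had a median change of -0.80 in this contrast, with 0 of 8 passing. Their mean level was 9.42 in the first short-day array of ZT12 and 7.60 in the second, and it also stood high in the second long-day array of ZT12 (9.39) and the second advance-day array of ZT12 (9.36). Without these 3 arrays, an alternative also added later, the steps were 1.17 in Gpr6, 1.00 in Cables1, 0.76 in Noct, 0.71 in Fam107a and 0.88 in Fgf18, and 0 genes passed. The part of these tissues in the steps was not tested beyond that.

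**Figure D1:**
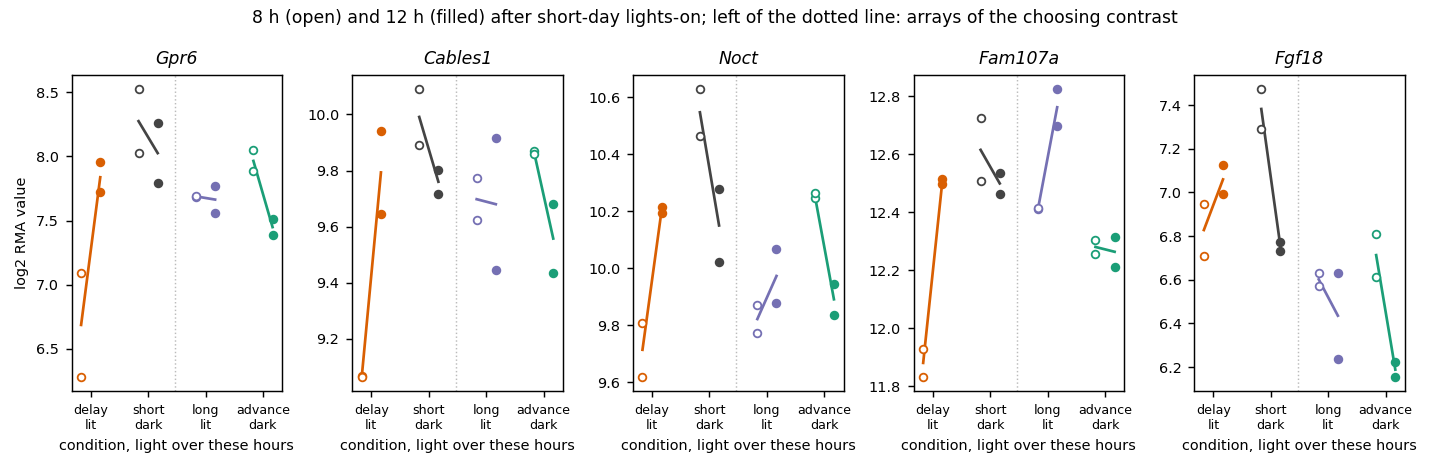
Log2 values of the 5 genes at 8 h (open) and 12 h (filled) after lights-on of the short-day cycle, by condition, with lines joining the means of 2 arrays. The delay and short-day arrays left of the dotted line chose the genes. To its right, both Fam107a arrays are higher at the second time on long days. All genes but Fam107a have both advance-day arrays lower at the second time. The share of all genes separated in this way was not counted. Of all 18194 genes 8 (0.044%) passed the advance-day change and 3 (0.0165%) the long-day change, none of them among the 5.

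The same 4 h of the evening can be followed in arrays that the choice did not use. They were lit on long days (ZT12 to ZT16 of that cycle) and dark on the advance day (ZT8 to ZT12). Gpr6 read 7.68 and 7.69, then 7.77 and 7.56 on long days, against 8.05 and 7.88, then 7.39 and 7.51 on the advance day. Noct read 9.77 and 9.87, then 10.07 and 9.88 on long days, against 10.25 and 10.27, then 9.84 and 9.95 on the advance day. Both genes were lower at the later time on the advance day in every array, and neither had a clear change on long days. How many of all genes separate in this way was not counted.
Fam107a read 12.41 and 12.42, then 12.83 and 12.70 on long days, against 12.30 and 12.26, then 12.21 and 12.31 on the advance day. Cables1 read 9.62 and 9.77, then 9.92 and 9.44 on long days, against 9.87 and 9.86, then 9.43 and 9.68 on the advance day. Fgf18 read 6.57 and 6.63, then 6.63 and 6.24 on long days, against 6.61 and 6.81, then 6.22 and 6.15 on the advance day. The second of the later long-day arrays is the one whose clock genes stood apart.

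The change on long days minus the change on the advance day was positive in all 5 genes, yet none passed. It was 0.52 ± 0.16 in Noct, 0.49 ± 0.28 in Gpr6, 0.37 ± 0.12 in Fam107a, 0.36 ± 0.26 in Fgf18 and 0.29 ± 0.19 in Cables1 (log2, SE, limma, adjusted p = 0.982 for each). Of all 18194 genes, 0 (0%) passed this comparison, and 858 had an unadjusted p under 0.05. Without the 2 long-day arrays that stood apart the differences were 0.61, 0.60, 0.43, 0.56 and 0.53 in the same order, and adjusted p ranged from 0.284 to 0.855. Long days and the advance day differ in age, in the days of long light and in clock phase as well as in evening light, and these cannot be told apart here. The neuron markers had a median change of 0.24 in this comparison, with 0 of 14 passing, and the pars distalis markers one of -1.41, with 0 of 8 passing. Without the 3 arrays of high pars distalis level the differences were 0.62 in Noct, 0.56 in Gpr6, 0.42 in Fam107a, 0.35 in Fgf18 and 0.49 in Cables1, with adjusted p between 0.861 and 0.897.

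Taken by itself, the evening change on long days passed in none of the 5 genes and in 3 of all genes (0.0165%). It was 0.35 ± 0.08 in Fam107a (adjusted p = 0.242, limma; 0.42 and 0.0225 with the 3' minus 5' signal of actin, a measure of RNA quality, as a covariate), 0.15 ± 0.11 in Noct, -0.02 ± 0.20 in Gpr6, -0.02 ± 0.14 in Cables1 and -0.17 ± 0.18 in Fgf18. Without the second long-day array of ZT16 the change was 0.41 in Fam107a, 0.25 in Noct, 0.08 in Gpr6, 0.22 in Cables1 and 0.03 in Fgf18. On the advance day the change was -0.52 ± 0.20 in Gpr6, -0.52 ± 0.18 in Fgf18 and -0.37 ± 0.11 in Noct. In Cables1 it was -0.31 ± 0.14 and in Fam107a -0.02 ± 0.08, with limma adjusted p between 0.311 and 0.983 over the 5 genes. Here 8 of all genes passed (0.044%), none of them among the 5. Fitted on the advance-day arrays alone, Fgf18, Gpr6 and Noct passed, with adjusted p of 0.0240, 0.0361 and 0.0485 (limma). In that fit 168 of all genes passed.

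At ZT16, 4 h later, the delay day was at the end of its extra light and the advance day at the start of its own. Fam107a was higher on the delay day, with 12.58 and 12.55, against 12.05 and 12.16 on the advance day. The difference was 0.47 ± 0.08 (1.38-fold, limma adjusted p = 0.00404), and 160 of all genes (0.879%) passed, 82 of them (0.451%) upward. At every other time but ZT8 the delay-day mean of Fam107a was higher too, as at ZT0 with 12.17 against 11.73. Cables1 read 9.31 and 9.22 on the delay day against 8.68 and 8.87 on the advance day. The difference of 0.49 ± 0.14 missed the threshold (limma adjusted p = 0.0723). It passed with the arrays of these 2 conditions alone (0.0174), a fit in which 387 of all genes passed. Noct differed by 0.23 ± 0.11, Gpr6 by 0.15 ± 0.20 and Fgf18 by 0.04 ± 0.18, and none of them passed. Of 21 clock genes 2 passed, with Per2 higher by 0.74 ± 0.14 (adjusted p = 0.00786) and Cry1 lower (-0.79 ± 0.13, adjusted p = 0.00223). Matched to the short-day course of the clock genes, the delay-day arrays sat at -2.8 and -3.2 h. The advance-day arrays sat at -0.5 and -0.0 h. Light and clock phase thus differ together at ZT16 and cannot be told apart there.

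The Fam107a difference lost its call without the first advance-day array or the first delay-day array of ZT16, where its adjusted p reached 0.153. Against short days at ZT16 the delay-day level was higher by 0.21, with an adjusted p of 0.107. A second Fam107a probe set gave 0.38 (adjusted p = 0.0319 over all probe sets) and the remaining one 0.36 (0.334). At this time 1 of 14 neuron markers was called, Sst, upward, with a median change of 0.25 over the list, and 1 of 8 oligodendrocyte markers, Mobp, was also higher, with a median of 0.35. Col1a1 and Col3a1, 2 of 7 fibroblast and meningeal markers, were lower, with a list median of -0.30. The part of these tissues in the result was not tested beyond a fit with the neuron level, in which Fam107a differed by 0.34 (adjusted p = 0.0376).

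**Figure D2:**
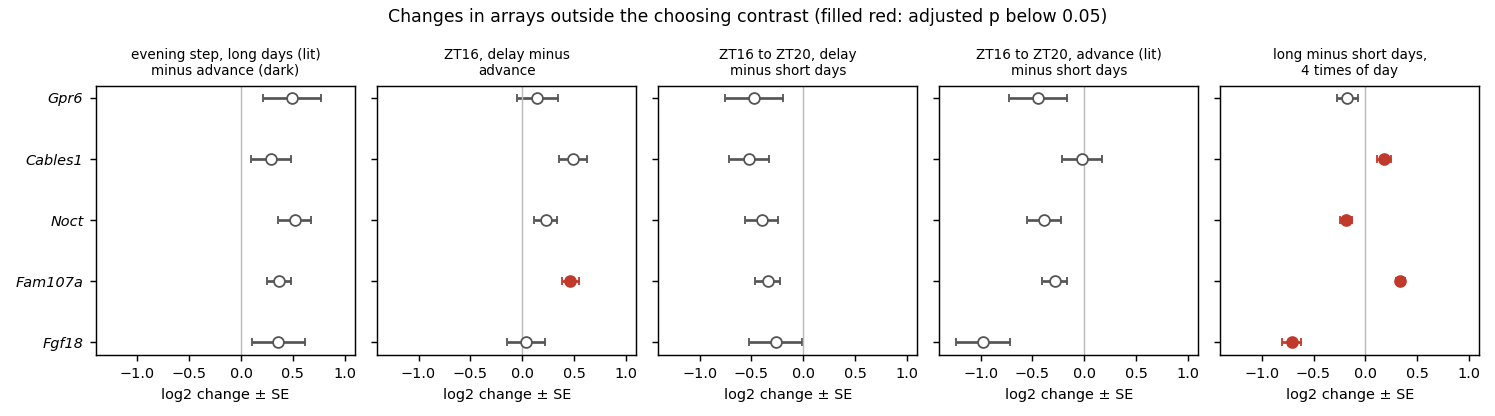
Differences in the 5 genes (log2 change with its SE) in 5 comparisons whose arrays did not choose them; filled points passed at an adjusted p below 0.05. Only Fam107a passed among the 4 comparisons within a first-day or evening window, at ZT16, where 0.879% of all genes did. Between long and short days 4 of the 5 genes passed, where 44.4% of all genes did.

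After the delay-day lights went off at ZT16, the change to ZT20 was lower than that over the same hours of short days in all 5 genes, and none of them passed. The differences of the changes were -0.53 ± 0.19 in Cables1, -0.47 ± 0.28 in Gpr6, -0.40 ± 0.16 in Noct, -0.34 ± 0.12 in Fam107a and -0.27 ± 0.26 in Fgf18, with limma adjusted p between 0.756 and 0.912. Over all genes 4 (0.022%) passed. The neuron markers had a median of -0.27 here too.

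Fgf18 was low at ZT20 of the advance day, 4 h after its lights came on. Its arrays read 6.68 and 6.68 at ZT16 and 5.78 and 5.75 at ZT20 of the advance day, against 7.11 and 6.94, then 7.20 and 6.98 on short days. The advance-day arrays of ZT20 were the lowest 2 of all 48 for this gene. The difference of the changes was -0.98 ± 0.26 and did not pass (limma adjusted p = 0.162), where 40 of all genes (0.22%) did. It passed with the advance and short-day arrays alone (adjusted p = 0.0354) and without the first short-day array of ZT16. The neuron markers had a median of -0.06 here. The other 4 genes differed by -0.44 ± 0.28 (Gpr6), -0.39 ± 0.16 (Noct), -0.28 ± 0.12 (Fam107a) and -0.02 ± 0.19 (Cables1), and none passed.

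Each of the 5 genes reached its highest mean at ZT8 both on the advance day and on short days. On the delay day the highest mean was at ZT12 in 4 of them and at ZT16 in Fam107a. The arrays of ZT8 and ZT12 from short days and from the delay day chose the genes. The times of highest level in those conditions are therefore a description. On long days the highest mean lay at ZT20 in Gpr6, Cables1 and Fgf18, at ZT16 in Fam107a and at ZT0 in Noct, in that cycle's own count. Without the second long-day arrays of ZT16 and ZT20, which stood apart, it lay at ZT16 in all 5 genes. In Gpr6 the margin was then small, with 7.77 at ZT16 against 7.76 at ZT20. Each of these times then rests on a single array. In the short-day arrays outside ZT8 and ZT12 no gene of the 5 passed a test for change over the 4 remaining times (limma F test, adjusted p between 0.102 and 0.752), where 367 genes (2.02%) did. The short-day test lacks the ZT8 peak, which chose the genes. Over all 6 short-day times the group means ranged over 0.90 in Cables1, 0.83 in Gpr6, 0.63 in Fgf18, 0.48 in Noct and 0.42 in Fam107a, values that are given as a description.

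**Figure D3:**
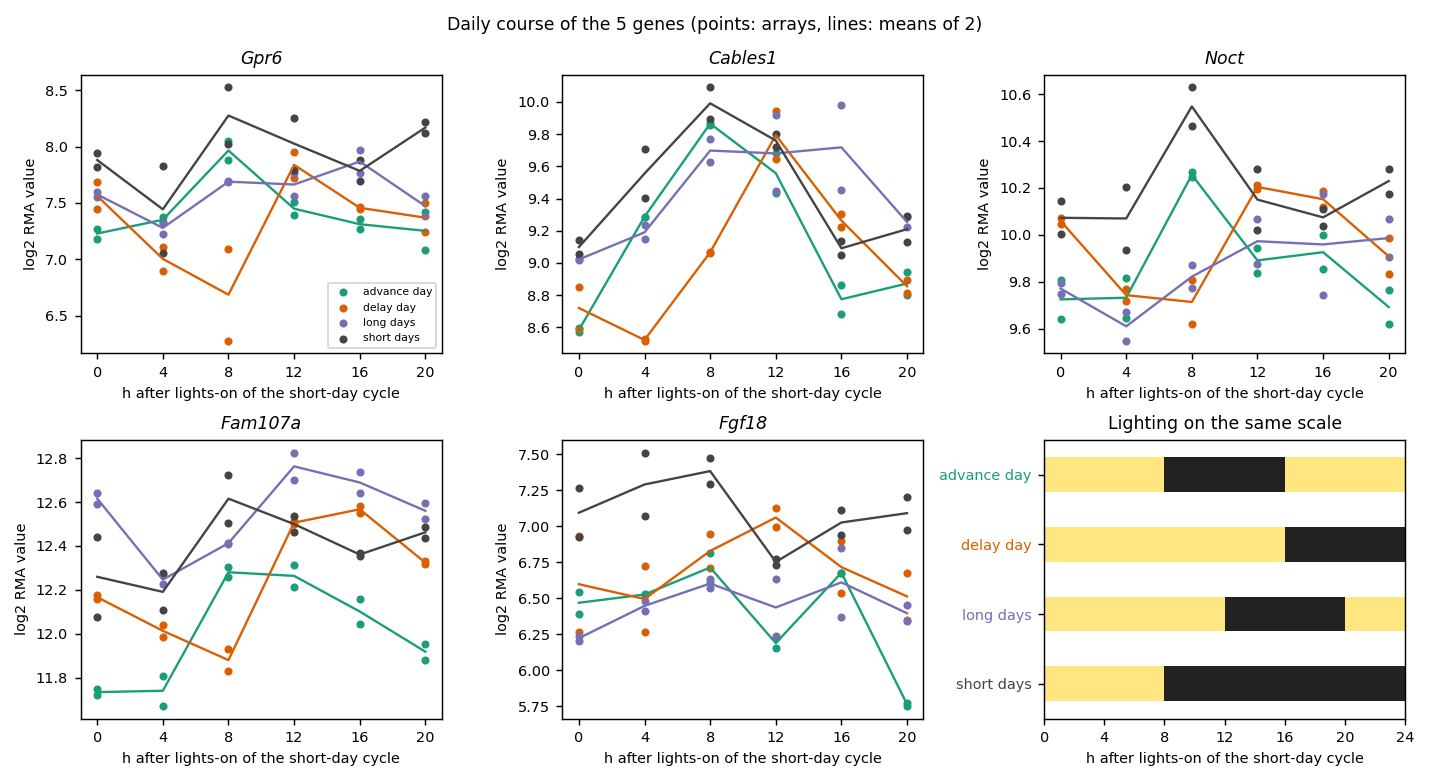
Log2 values of the 5 genes over the day by condition, as points for arrays and lines for means of 2, with the lighting drawn on the same scale (yellow: light, black: dark). Long-day times are moved by 4 h to share the clock with short days, and the ZT16 and ZT20 arrays of the advance day come first in that day. Delay-day levels of Gpr6, Noct and Fam107a are lowest at 8 h, where short-day and advance-day levels of Gpr6 and Noct are highest. The delay-day and short-day arrays of 8 and 12 h chose the genes.

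Cables1 and Fam107a passed a test for a daily course on the advance day and on long days, over 6 times, and on the delay day, over 4. On the advance day Cables1 ran from 8.58 at ZT0 to 9.86 at ZT8, a range of 1.28 (adjusted p = 5.42e-08, limma F test), and Fam107a over a range of 0.55 (adjusted p = 6.84e-06). Fgf18 ranged over 0.95 (0.00492) and Noct over 0.56 (0.00921), so 4 of the 5 genes passed on the advance day, where 470 genes (2.58%) did. Noct lost its call without either array of ZT8, and Fgf18 without either array of ZT20. Gpr6 ranged over 0.74 and did not pass (limma F test, adjusted p = 0.152), but did with the advance-day arrays alone (0.00173). In that fit 1325 of all genes passed.

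On long days Cables1 ranged over 0.70 (adjusted p = 0.00125) and Fam107a over 0.52 (0.00138), and these 2 of the 5 genes passed where 296 genes (1.63%) did. Without the 2 long-day arrays that stood apart their adjusted p were 6.19e-05 and 0.00433, and Cables1 lost its call with long-day arrays alone (0.139). On the delay day, over the 4 times the choice left out, Fam107a passed with a range of 0.55 (0.00169) and Cables1 with 0.74 (0.0234), where 61 genes (0.335%) did. The Cables1 call was lost without either array of ZT4 or of ZT16 and with delay-day arrays alone (0.107), and its second probe set did not pass there (0.501). That second probe set did pass for the courses of the advance day (1.28e-07) and of long days (0.000340) and between long and short days (0.24, 0.0107).

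The fitted peak of a 24 h cosine, on the clock of the short-day cycle, lay later on the delay day and on long days than on the advance day in all 5 genes. For Cables1 it was 8.86 h on the advance day, 13.1 h on the delay day, 12.2 h on long days and 8.48 h on short days. For Fam107a it was 12.0, 16.4, 16.0 and 12.1 h in the same order of conditions, and for Noct 9.97, 16.3, 15.8 and 8.76 h. The clock gene Per2 peaked at 9.02, 12.7, 12.0 and 8.27 h. The delay-day and short-day fits include the arrays that chose the 5 genes, so their peaks are given as a description. The cosine took up 81.0% of the short-day variance of Cables1, but 32.25% in Fgf18, 30.07% in Fam107a, 19.51% in Noct and 8.16% in Gpr6. The lowest shares in the other conditions were 27.8% (Fgf18, advance day), 30.95% (Gpr6, delay day) and 25.85% (Fgf18, long days). Where the share is low the peak is poorly placed, as with the short-day peak of Gpr6, put at 13.9 h.

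**Figure D4:**
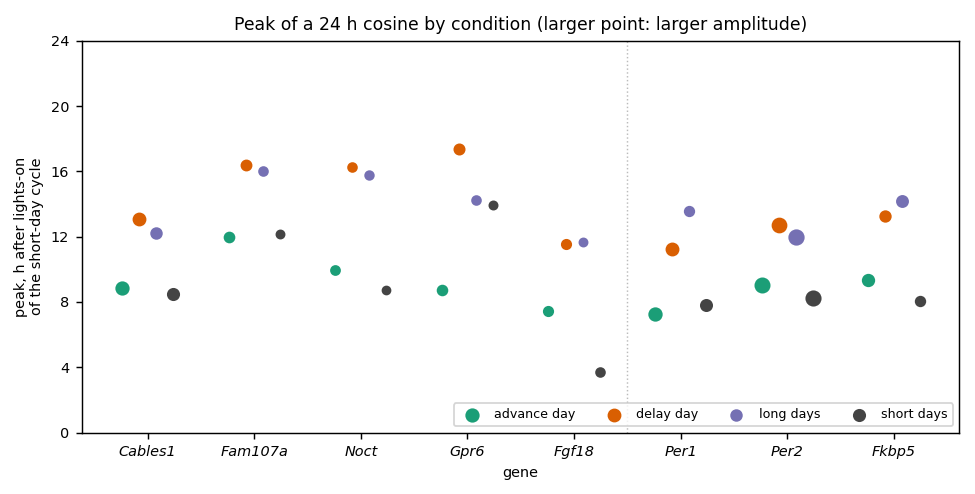
Peak of a 24 h cosine for the 5 genes and, right of the dotted line, for Per1, Per2 and Fkbp5 in each condition, on the clock of the short-day cycle, with larger points for larger amplitudes. Delay-day and long-day peaks of Cables1, Fam107a, Noct, Fgf18 and the 3 other genes lie above their advance-day and short-day peaks. The delay-day and short-day fits include the arrays that chose the 5 genes.

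The clock genes were late on the whole of the delay day. Matched to the short-day course of 15 clock genes, the delay-day arrays sat at a median of -3.55 h, with a range of -4.8 to -2.4 h, which means that they resembled an earlier short-day time than their label. The 2 arrays of ZT8, which precede the extra light by ZT label only, sat at -2.4 and -4.1 h, and those of ZT12 at -4.3 and -4.8 h. Advance-day arrays sat at a median of -0.7 h and short-day arrays at -0.25 h. Long-day arrays sat at a median of -3.35 h in clock time.

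The delay-day courses of the 5 genes were closest to the short-day course moved later by 4 h in 4 of 5, and by 8 h in Fgf18, as 14 of 15 clock genes were at 4 h. Moving the short-day course by 4 h took the root mean square difference to 0.16 in Gpr6, against 0.48 with no move, to 0.14 in Cables1, against 0.45, to 0.13 in Noct, against 0.32, and to 0.14 in Fam107a, against 0.29 (log2). On the advance day 4 of the 5 genes and 15 of 15 clock genes were closest with no move. On long days, in clock time, 3 of the 5 genes and 13 of 15 clock genes were closest at 4 h. Gpr6 was closest there at 0 h and Fgf18 at 12 h. This comparison uses the short-day and delay-day arrays that chose the genes, so it is a description. A 4 h lag of the daily course and an effect of light in the evening cannot be told apart by the step itself.

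**Figure D5:**
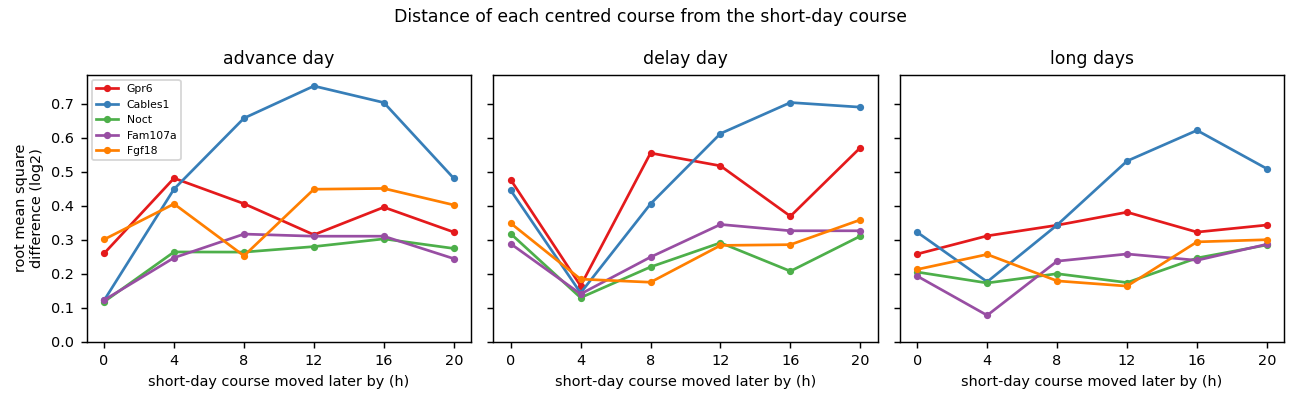
Root mean square difference between each gene's centred course and its short-day course moved later by 0 to 20 h, for the advance day, the delay day and long days. On the delay day the difference is smallest at 4 h for Gpr6, Cables1, Noct and Fam107a, and on the advance day at 0 h for those 4 genes.

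Between long and short days, over ZT0, ZT4, ZT16 and ZT20, 4 of the 5 genes passed where 8083 genes (44.4%) did. Fgf18 was lower on long days, at 6.45 and 6.34, 6.24 and 6.20, 6.63 and 6.24, and 6.37 and 6.85 over these times, against 6.92 and 7.26, 7.51 and 7.07, 7.11 and 6.94, and 7.20 and 6.98 on short days. At these 4 times no long-day array of Fgf18 reached the lowest short-day array. The difference was -0.71 ± 0.09 (adjusted p = 9.77e-08, limma), and 5185 genes (28.5%) were called lower.

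Fam107a was higher on long days, at 12.60 and 12.52, 12.59 and 12.64, 12.83 and 12.70, and 12.64 and 12.74, against 12.08 and 12.44, 12.27 and 12.11, 12.37 and 12.35, and 12.49 and 12.44 on short days. At these 4 times the groups did not overlap either. The difference was 0.34 ± 0.04 (limma adjusted p = 5.26e-08), where 2898 genes (15.9%) were called higher. At ZT8 and ZT12 the order was the reverse, with means of 12.25 and 12.41 on long days against 12.62 and 12.50 on short days. Over all 6 times the mean was 12.55 on long days and 12.40 on short days. How many of all genes lack overlap was not counted. Noct was lower, with -0.19 ± 0.06 (0.00612). It lost its call when each array was centred on its median (-0.10, adjusted p = 0.138) and with the actin signal as a covariate (-0.11, 0.316). Cables1 was higher by 0.18 ± 0.07 (0.0294), which lost its call without any 1 of 7 of the 16 arrays, with the long-day and short-day arrays alone (0.0633) and matched by clock time (0.06), and was -0.02 over all 6 times. Gpr6 differed by -0.17 ± 0.10 and did not pass (0.161), although it did over all 6 times at -0.34 (adjusted p = 0.000706).

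Cell markers differed between these groups as well. The tanycyte list was lower in 5 and higher in 1 of its 9 measured genes, with a mean level of 10.43 to 10.63 on long days against 10.50 to 10.91 on short days. Rax, a homeobox gene of tanycytes, was lower on long days (-0.79 ± 0.09) and was among the 3 genes closest to Fgf18 in pattern. The ependymal list was lower in 6 of 8 and the striatal neuron list in 7 of 8, beside the 28.5% of all genes called lower. Of 6 pars tuberalis markers 4 were higher, Tshb, Mtnr1a, Pitx1 and Chga, and 0 lower, beside the 15.9% of all genes called higher. The part of any of them in the Fgf18 and Gpr6 values was not tested.

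The group means of the 5 genes were more alike within some pairs than others. Over 24 group means, which share the 4 conditions, Pearson's r was 0.80 between Gpr6 and Noct, 0.71 between Noct and Fgf18, and 0.22 between Fam107a and Fgf18. The genes most like Gpr6 were Matk (0.85), Kcna5 (0.84) and Cpne7 (0.82). Those most like Cables1 were Nanp (0.91), Pcdh20 (0.91) and Trpc4 (0.88), and those most like Noct were Paqr9 (0.85), Elovl6 (0.85) and Zswim3 (0.84). For Fam107a they were Gpr83 (0.91), Phlpp2 (0.88) and Rab3c (0.87), and for Fgf18 Zfyve26 (0.90), Thrsp (0.89) and Rax (0.88).

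Genes that work with the 5 were also followed. Gpr3 and Gpr12, the closest relatives of Gpr6, passed in none of the comparisons above, with changes of -0.23 and 0.22 in the evening difference of long days minus the advance day. The relatives and lipid receptors of Gpr6 were called between long and short days in 7 of 14, with 3 higher and 4 lower, and the sphingosine phosphate receptor S1pr3 was among those lower (-1.10 ± 0.05). In that comparison 44.4% of all genes were called, 15.9% higher and 28.5% lower. Of the partners of Cables1, 11 of 18 were called there, 10 of them lower, among them Cdk5r1, an activator of Cdk5 (-0.28), and Cdk5 (-0.20). Wee1, a kinase that holds back mitosis, was the single one higher, by 0.46, and was the only one of them with a daily course on long days (adjusted p = 0.000358).

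Of 22 genes of deadenylation and the Noct family, 10 were called between long and short days, beside 44.4% of all genes. Of these 10, 4 were higher and 6 lower, with Angel1, a relative of Noct, at -0.31. Tob1 and Btg2, which recruit the Ccr4-Not deadenylase, were the 2 of these 22 with a daily course on long days, beside the 1.63% of all genes. Among 22 glucocorticoid-responsive genes and Fam107 relatives, 5 had a daily course on long days, where 1.63% of all genes did, and 7 on the advance day, where 2.58% did. Fkbp5, a chaperone of the glucocorticoid receptor, ranged over 0.89 on long days (adjusted p = 0.000401) and over 1.02 on the advance day (2.19e-05). It was the only 1 of the 22 called in the contrast that chose the genes, with 1.06. Its change on long days minus the advance day in the evening was 0.67 ± 0.20 and did not pass (0.982). The Fam107a relative Fam107b passed in neither daily course.

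Of 29 genes of FGF signalling, 2 had a daily course on the advance day, the feedback phosphatase Dusp6 (adjusted p = 0.0432) and the transcription factor Etv5 (0.0178), beside the 2.58% of all genes. Between long and short days 14 of the 29 were called, 5 higher and 9 lower. Dusp6 was higher by 0.33 ± 0.06 and the receptor Fgfr1 was lower (-0.21 ± 0.08), while Fgfr2, Fgfr3 and Fgfr4 did not pass. These lists were compared with all genes by their counts alone, and 44.4% of all genes were called in that comparison.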

How the data were processed

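Log2 values of 45101 probe sets in 48 arrays were used as the authors deposited them; per the submitters' processing notes they were made with RMA in R 2.8.0. Of the probe sets, 34958 carried 1 gene symbol, 932 several and 9211 none, and 34754 had an Entrez identifier in the RefSeq table, which changed 0 symbols. The probe set of the highest mean stood for each of 18194 genes. A mean for each of 24 groups of 2 arrays was fitted with limma 3.58.1 in R 4.3.3 (24 residual degrees of freedom, empirical Bayes with a trend, two-sided, Benjamini-Hochberg over all genes, threshold 0.05); errors are SE. The number of arrays limits the precision. The design text says that the procedure was repeated for the replicates. Peaks are from a 24 h cosine. The fit was tested on simulated data: for the evening difference of long days minus the advance day, 90 of 100 genes changed by 1 (log2) and 99 of 100 changed by 2 were recovered among 18194. No change was simulated in the late-night comparison, where 0 of these genes were called. Changes as small as those of the 5 genes in the evening difference, 0.29 to 0.52, were not simulated. Members, gene lists and tests were chosen with earlier results of these data known. Named genes are the 5 genes, the 3 most alike in pattern, relatives listed by name, up to 4 genes per list with the smallest p and the genes next to the threshold.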

Additional observations from a re-analysis of the deposited data

How the results depend on the processing

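Outside the fits that leave out 1 array, 582 values of single genes kept direction and side of the threshold, and 95 counts of passing genes stayed within 1.5 times. The cause of the exceptions was not tested. With only the arrays of the conditions compared, 0 genes passed the long-day evening change, 168 the advance-day one, 387 the delay minus advance difference at ZT16, and 83, 1325, 28 and 17 the courses of long days, the advance day, short days and the delay day. The advance-day evening change passed in 4 genes without the trend and in 3 with robust variances. With actin 3' minus 5' signal as a covariate the counts were 15 for the advance-day evening, 25 for ZT16 and 4624 for long minus short days; with the mean of probe sets they were 1, 96 and, for the delay course, 40. The evening difference of long days minus the advance day passed in 8 genes without the 2 long-day arrays that stood apart and in 4 matched by ZT, and delay minus short days at ZT16 in 2128. With the neuron level as a covariate, 1 gene passed the contrast that chose the genes, 17 the long-day evening, 2 the advance-day evening and 61 the ZT16 difference. Without the 3 arrays of high pars distalis level, 0 genes passed the choosing contrast and 0 the advance-day evening.

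Same-numbered arrays did not deviate together at every pair of times, so the replicate numbers were not taken as pairs: over all groups the median r was 0.05 and the lowest -0.34. Within conditions some tie was seen, with r over 0.1 in 14 of 15 pairs of times on long days (median 0.24, lowest 0.087) and 11 of 15 on the delay day (median 0.27). With a replicate block over all arrays, 249 genes passed at ZT16 and 100 the delay course. With a replicate block within each condition, 6 passed the long-day evening, 368 at ZT16, 736 the advance course, 809 the short-day course, 121 the delay course and 11 the choosing contrast, and Cables1 passed at ZT16 (0.49). No other call on the 5 genes changed under either block.

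Signs turned only in values that had not passed, apart from Cables1 between long and short days, at -0.024 over all 6 times. In the long-day evening the actin fit gave 0.089 in Gpr6, 0.068 in Cables1 and 0.023 in Fgf18, and leaving out the 2 arrays gave 0.079, 0.22 and 0.031; without the 3 arrays Cables1 was 0.056. Fam107a in the advance-day evening was 0.0012 over probe sets and 0.062 with the neuron level. At ZT16 Gpr6 was -0.0042 (actin), -0.33 (against short days) and -0.18 (neuron level), and Fgf18 was -0.21, -0.31 and -0.29 in these fits and -0.0085 after centring. Cables1 after late-night light was 0.022 (actin), 0.0042 (probe sets), 0.057 (centring) and 0.056 (neuron level), and Fgf18 after lights-off 0.096 (neuron level).

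Leaving out 1 array at a time, the number of passing genes ran from 0 to 6 for the choosing contrast (0 without the first short-day array of ZT8, 6 without the second), from 0 to 5 for the evening difference of long days minus the advance day, from 0 to 25 and 0 to 3 for the long-day and advance-day evenings, from 8 to 199 at ZT16 and from 2 to 315 and 18 to 334 for the changes after lights-off and after late-night light, both highest without the first short-day array of ZT16. The courses gave 209 to 419 genes on long days, 341 to 505 on the advance day, 138 to 1115 on short days and 25 to 69 on the delay day, and long minus short days 7438 to 8327. In the choosing contrast Fam107a passed in 4 of 8 such fits, Gpr6 and Noct in 3 and Cables1 in 1. Values that changed sign ran from -0.11 to 0.070 for Cables1 after late-night light, from -0.13 to 0.079, -0.25 to 0.22 and -0.36 to 0.031 for Gpr6, Cables1 and Fgf18 in the long-day evening, from -0.14 to 0.22 for Fgf18 at ZT16 and from -0.068 to 0.035 for Fam107a in the advance-day evening.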
